A study of Arabidopsis thaliana with 16 samples.

Results

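Wild-type Arabidopsis thaliana seedlings held for 24 h in strong shade were compared with wild-type seedlings held for the same time in shade. The comparison rests on 6 of the 16 Affymetrix arrays of the series, chosen by their labels alone as the 3 strong shade and the 3 shade arrays of the Col-0 wild type (WT). Each array measured RNA from whole seedlings that were 5 days old when the light changed. LEDs supplied the light of both groups, with 3.5 µmol m-2 s-1 of blue in each. In shade the photon flux (same unit) was 13 for red and 21 for far-red, and the ratio of red to far-red 0.7. In strong shade it was 3 for red and 30 for far-red, and the ratio 0.1. Red fell and far-red rose together, so the effects of the ratio and of either irradiance cannot be told apart. Further arrays serve as reference, among them 2 WT arrays from white light of 45 µmol m-2 s-1. Others are 3 shade and 3 strong shade arrays of a phyA null mutant of the same age and treatment. This mutant lacks the photoreceptor phytochrome A. The series also holds 2 phyA arrays from the same white light, which enter the model of all 16 arrays used below. Whether the arrays of a group came from separately grown seedlings is not given in the labels. The p-values therefore measure the scatter among these arrays, some or all of which may be technical.

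Phytochromes are photoreceptors that switch between a red-absorbing and a far-red-absorbing form. Light filtered through leaves is rich in far-red and inactivates phytochrome B, which releases growth-promoting transcription factors, raises auxin synthesis and lengthens stems through cell wall loosening, together called shade avoidance. Phytochrome A signals under far-red-rich light instead and is known to restrain that elongation in deep shade, with its nuclear transport helpers FHY1 and FHL and the transcription factors HY5 and HYH acting downstream.

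In this step from shade to strong shade, RNA of 6 expansin and XTH genes of cell wall loosening, 4 tubulins and 3 shade-induced genes fell. RNA of the light-signalling gene HYH, a thionin, 2 Calvin cycle enzymes and 2 genes known from carbon shortage rose. The tubulins were picked by symbol after values had been seen. None of these shade-induced, Calvin cycle or carbon shortage genes passed the threshold below in every fit that left out 1 array. Of the expansin and XTH genes 3 did, and of the tubulins 1. A probe set was called at a limma adjusted p under 0.05 over all 22746 probe sets. By that rule 306 probe sets were higher in strong shade, 1.35% of all, and 542 were lower, 2.38% of all, or 3.73% in either direction. Taking 1 probe set for each of the 13355 genes that could be named, 152 genes were higher, 1.14% of the genes, and 247 were lower, 1.85%, or 2.99% in either direction. A further 446 called probe sets have no single gene listed and are unnamed here. Log2 differences of called probe sets reached 2.70 upward and -2.65 downward, and 61 higher and 166 lower probe sets differed by at least 1 on the log2 scale, a 2-fold change. Called genes with a symbol that stand in no list are described beside the list nearest to them; they were placed there after their values were seen and do not count for a process. In all 399 called genes the 3 strong shade arrays lay wholly above or wholly below the 3 shade arrays. Arrays separated in this way for 10.4% of all genes upward and 9.87% downward. Centring each array on its median turned the split of 306 higher and 542 lower, 36.1% higher, into 446 and 432, 50.8% higher.

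Arrays of the same group correlated at 0.990 to 0.995 over all probe sets and arrays of different groups at 0.985 to 0.989. Array medians lay between 13.7 and 14.6 intensity units. The number of calls depended on single arrays: it fell to 90 higher and 197 lower without WT shade array 2, to 140 and 250 without shade array 3, to 188 and 372 without strong shade array 1, to 102 and 169 without strong shade array 2, and to 112 and 326 without strong shade array 3. Without shade array 1 it was 365 and 735. Of the called genes, 36 higher and 58 lower kept their call in each of these 6 fits. In bulk tissue, fewer cells of a type and less RNA per cell cannot be told apart.

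**Figure D1:**
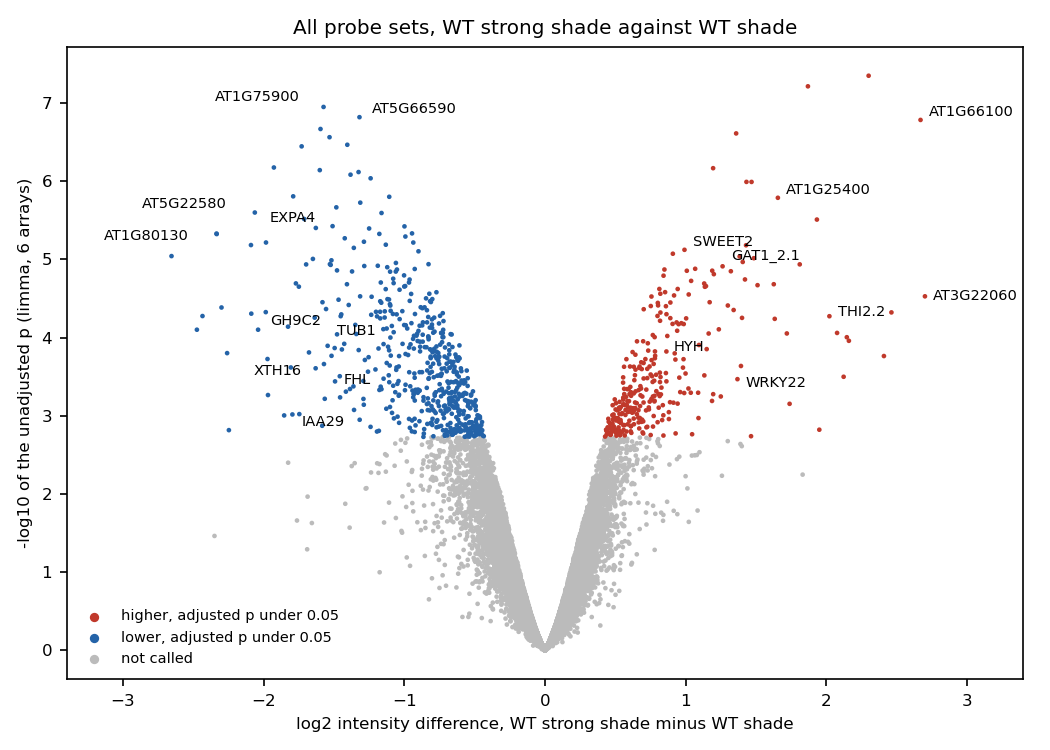
Log2 intensity difference between WT strong shade and WT shade (x axis) against -log10 of the unadjusted limma p (y axis) for all probe sets; red and blue points have an adjusted p under 0.05. The 542 lower probe sets outnumber the 306 higher ones, and both reach past a 2-fold change. With each array centred on its median, not plotted, the counts were 432 lower and 446 higher.

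Among the genes of light signalling and shade response, 1 transcription factor rose and 3 shade-induced genes fell. HYH, a bZIP transcription factor close to HY5, read 4.15, 4.12 and 3.87 log2 units on the WT shade arrays and 4.77, 5.16 and 4.82 on the strong shade arrays. The lowest strong shade array thus lay above the highest shade array, and the difference was 0.87 ± 0.14 (standard error, as throughout for log2 differences; adjusted p = 0.00986), a 1.83-fold rise. It kept its call whichever array was left out, with adjusted p up to 0.0433. FHL, which helps to carry phytochrome A into the nucleus, moved the other way. Its shade arrays read 4.44, 3.74 and 4.54 and its strong shade arrays 2.97, 3.20 and 3.24, so that all strong shade arrays were lower, by 2.15-fold (log2 difference -1.10 ± 0.20, adjusted p = 0.0159). That call was lost without shade array 3 or strong shade array 1 or 2, at adjusted p up to 0.0598. These were the 2 measured members of a list of 32 phytochrome signalling genes.

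Of the 23 listed shade-induced genes 5 were measured, and 3 of them fell while none rose, against 1.85% of all genes called lower. All 5 had negative log2 differences, with a median of -0.58 against 0.016 over all genes, of which 53.6% had a positive difference. IAA29, an Aux/IAA repressor of auxin response that is strongly induced by shade, read 6.86, 7.38 and 7.39 in shade and 6.24, 5.11 and 6.32 in strong shade. It was 2.49-fold lower (-1.32 ± 0.29, adjusted p = 0.0379), with strong shade array 2 the lowest of the 6. The homeodomain-leucine zipper gene HAT2 read 7.24, 7.31 and 7.48 in shade and 6.89, 6.57 and 6.82 in strong shade (-0.58 ± 0.12, adjusted p = 0.0339). The other fallen gene is FHL, described above. IAA29 and HAT2 each lost their call when shade array 2 or 3 or any strong shade array was left out, at adjusted p up to 0.149 and 0.134. They also lost it with all 16 arrays in the model, at 0.11 and 0.205, and with the replicate number as a block. IAA29 lost it with robust variances too. A model of 14 arrays took the 16 of the series, white light arrays of both genotypes included, without the third phyA arrays of both shades, described below. It was chosen after seeing the data and called more probe sets than the main fit, 523 higher and 898 lower. Of this list it called 4 members, and its counts for other lists below carry the same limit. WES1, a GH3 enzyme that couples auxin to amino acids, was not called: its mean was 9.39 ± 0.10 (SD, n = 3) in shade and 9.01 ± 0.12 in strong shade, with an adjusted p of 0.104. In the wider auxin response list IAA29 was the only called member of 7 measured. GH3.3, another auxin-conjugating enzyme, had a log2 difference of -0.62 ± 0.35 (adjusted p = 0.415), and IAA30 one of -0.41 ± 0.15 (adjusted p = 0.201).

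Cell wall loosening genes made up the list with the most members called. Expansins loosen the bonds between wall polymers, and xyloglucan endotransglucosylase/hydrolases (XTHs) cut and rejoin the xyloglucan chains that tie cellulose fibres together. Of 45 listed expansin and XTH genes 19 were measured: 6 fell, none rose and 13 were not called. Over all genes 1.85% were called lower. The median log2 difference over the 19 was -0.48, and 3 of them had a positive difference, against 53.6% of all genes. An earlier reading of these data already showed this list to move, so its count is a description of these arrays and no independent evidence.

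EXPA4, an alpha-expansin, read 5.33, 5.70 and 6.04 in shade and 4.22, 4.14 and 4.18 in strong shade, a 2.85-fold fall (-1.51 ± 0.16, adjusted p = 0.00295). Its strong shade arrays agreed within 0.04 (SD), and the nearest shade array lay above all of them. EXPA16, a further alpha-expansin, read 5.57, 5.23 and 5.82 in shade and 4.17, 4.11 and 4.64 in strong shade, 2.35-fold lower (-1.24 ± 0.18, adjusted p = 0.00755). The beta-expansin EXPB1 was dimmer, at 3.23, 3.74 and 4.09 in shade and 2.67, 2.62 and 2.59 in strong shade, 2.08-fold lower (-1.06 ± 0.19, adjusted p = 0.0163). In each of these expansins the groups did not overlap, as in every called gene.

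The XTHs showed the same order of the groups. XTH16 read 5.81, 6.71 and 6.80 in shade and 4.41, 5.38 and 4.64 in strong shade, 3.10-fold lower (-1.63 ± 0.29, adjusted p = 0.0164). XTH32 read 3.79, 4.51 and 4.28 in shade and 3.06, 3.10 and 3.18 in strong shade, 2.11-fold lower (-1.08 ± 0.17, adjusted p = 0.00957). XTH19 read 6.14, 6.46 and 5.86 in shade and 4.88, 5.32 and 5.49 in strong shade, 1.90-fold lower (-0.93 ± 0.19, adjusted p = 0.0278). EXPA4, EXPA16 and XTH32 kept their calls whichever array was left out. XTH16 lost its call without shade array 2 or 3 or strong shade array 1 or 3 (adjusted p up to 0.0805), XTH19 without shade array 2 or strong shade array 1 or 2 (up to 0.108), and EXPB1 without shade array 2 or strong shade array 2 or 3 (up to 0.0743). Without shade array 2 the list held 3 fallen members in place of 6. With all 16 arrays in 1 model none of the 6 was called, and the adjusted p of EXPA4 was then 0.117. The 14-array model without the third phyA arrays called 7 members of this list.

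**Figure D2:**
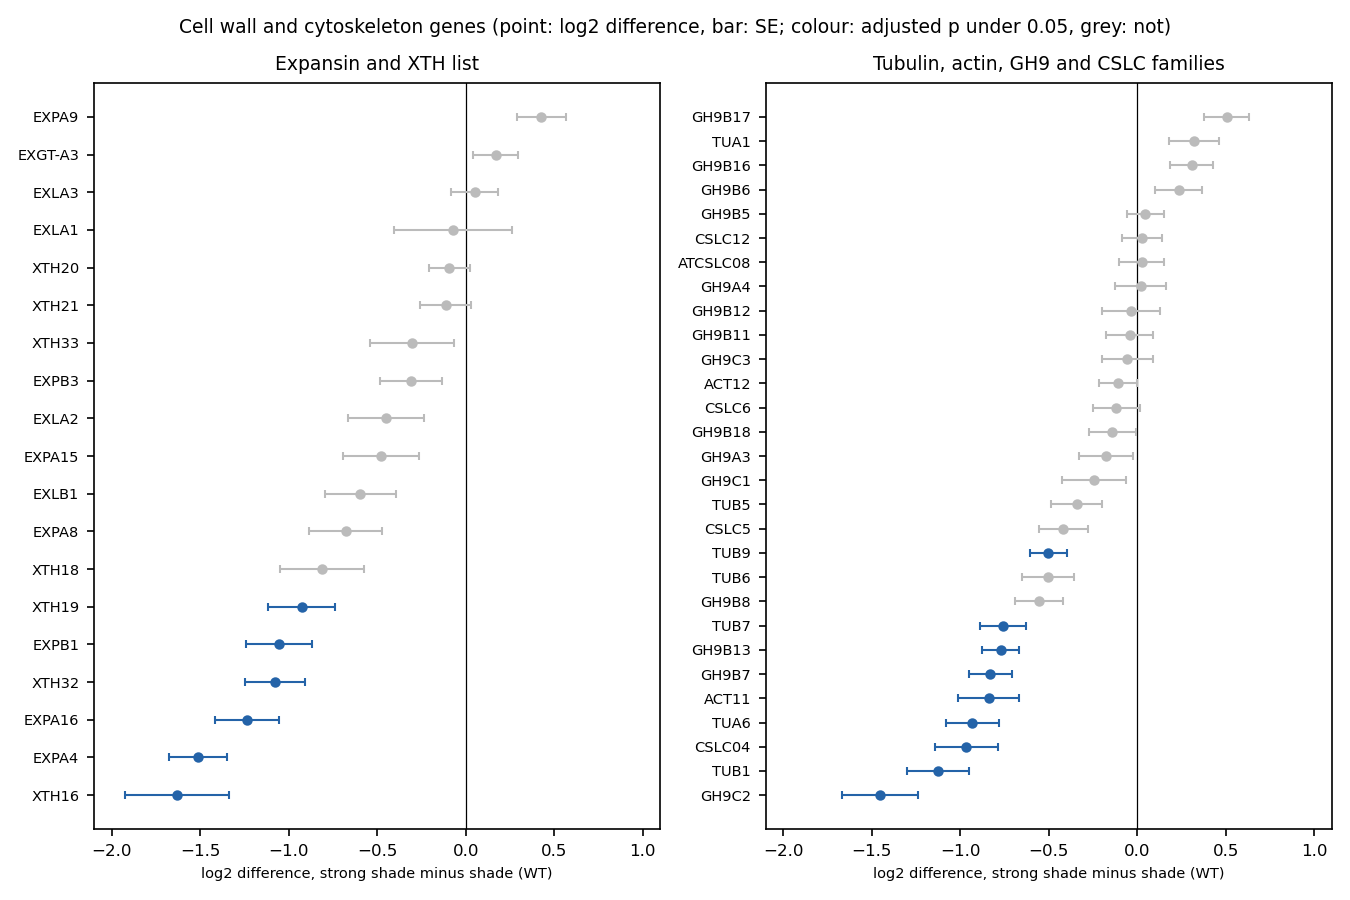
Log2 differences between WT strong shade and WT shade (points, with standard errors as bars; 3 arrays per group) for the measured expansin and XTH genes (left) and for tubulin, actin, GH9 and CSLC family genes (right). Every called gene, in blue, lies to the left of 0, down to XTH16 at -1.63 in the left panel and GH9C2 at -1.45 in the right one; EXPA9 at 0.43, in grey, was not called.

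Called genes outside that list included others that build or remodel the wall and the cytoskeleton. Their families were picked by symbol after values had been seen, so their counts are descriptions. Of 15 glycosyl hydrolase family 9 (GH9) genes, cellulase-type enzymes, 3 fell and none rose, against 1.85% of all genes called lower. The family median was -0.06, and 5 of the 15 had positive differences. With arrays centred on their medians 1 was called higher, and with all 16 arrays in the model 1 of the 15 was called. GH9C2 read 4.10, 4.97 and 4.94 in shade and 3.27, 3.03 and 3.35 in strong shade, 2.74-fold lower (-1.45 ± 0.21, adjusted p = 0.00762). GH9B7 was 1.78-fold lower (-0.83 ± 0.12, adjusted p = 0.0077) and GH9B13 1.71-fold lower (-0.77 ± 0.10, adjusted p = 0.00599). The 3 kept their calls whichever array was left out. CSLC04, a glucan synthase of the xyloglucan backbone, was the fallen one of 5 CSLC genes, from 6.22 ± 0.28 (SD, n = 3) to 5.25 ± 0.28 (adjusted p = 0.0175). Its call was lost without shade array 2 or 3 or strong shade array 1 or 2, at adjusted p up to 0.0817.

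Of 5 beta-tubulin genes, which encode microtubule subunits, 3 fell, against 1.85% of all genes called lower. All 5 had negative differences, while 53.6% of all genes had a positive one. With median centring, with the replicate number as a block or with all 16 arrays in the model, 2 of the 5 were called. TUB1 read 4.20, 4.71 and 4.63 in shade and 3.20, 3.25 and 3.71 in strong shade, 2.18-fold lower (-1.13 ± 0.17, adjusted p = 0.00898). TUB7 fell from 6.62 ± 0.18 to 5.86 ± 0.13 (SD, n = 3; adjusted p = 0.013) and TUB9 from 8.02 ± 0.04 to 7.52 ± 0.08 (adjusted p = 0.0284). The alpha-tubulin TUA6, a bright probe set, read 8.66, 9.13 and 9.10 in shade and 8.19, 7.90 and 8.01 in strong shade, 1.91-fold lower (-0.93 ± 0.15, adjusted p = 0.00985). TUA1, the other alpha-tubulin, was not called. ACT11, an actin, fell from 4.44 ± 0.34 to 3.60 ± 0.18 (adjusted p = 0.0291). TUB1 kept its call whichever array was left out. TUA6 lost it without shade array 2 or strong shade array 2 (adjusted p up to 0.0533) and TUB7 without shade array 2 or 3 or strong shade array 3 (up to 0.0691). TUB9 and ACT11 lost it in every such fit except the one without shade array 1 (up to 0.108 and 0.126).

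Called genes with a symbol included a pair known from DNA replication and cell division. AUR1, an aurora kinase of mitosis, went from 4.60 ± 0.15 to 3.91 ± 0.30 (SD, n = 3; adjusted p = 0.0417). POLA3, a subunit of the DNA primase, read 3.98, 4.02 and 3.92 in shade and 3.36, 3.35 and 3.38 in strong shade (-0.61 ± 0.10, adjusted p = 0.0117). Its 6 arrays fell into 2 tight sets, which did not overlap, as in every called gene. AUR1 lost its call without shade array 2 or 3 or strong shade array 1 or 2 (adjusted p up to 0.164), and POLA3 without shade array 2 or strong shade array 2 (up to 0.0618).

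In the Calvin cycle list, 3 of 18 genes were measured and 2 rose, against 1.14% of all genes called higher. SBPASE, the sedoheptulose bisphosphatase that helps to regenerate the carbon dioxide acceptor, read 9.08, 9.18 and 8.95 in shade and 9.72, 9.61 and 9.90 in strong shade, 1.59-fold higher (0.67 ± 0.12, adjusted p = 0.0161). PRK, the phosphoribulokinase that makes the acceptor itself, read 10.74, 10.66 and 10.62 in shade and 11.16, 11.05 and 11.13 in strong shade, 1.36-fold higher (0.44 ± 0.10, adjusted p = 0.0479). Both genes separated the groups fully, as did every called gene. RCA, the Rubisco activase, had a difference of 0.16 ± 0.12 (adjusted p = 0.545). SBPASE lost its call without shade array 3 or strong shade array 3 (adjusted p up to 0.065) and PRK in every fit that left out an array other than shade array 1 (up to 0.166). PRK also lost its call with cyclic loess (adjusted p = 0.0547), with all 16 arrays in the model (0.213) and with 1 probe set tested per gene. SBPASE kept its call under these settings. With the replicate number as a block neither was called, while the 14-array model called 2 members of this list.

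None of 8 measured light-harvesting, photosystem and ATP synthase genes was called. Over all genes 2.99% were called in either direction, so a count of 0 among 8 says little. LHCB4.2, a minor antenna protein, had the largest difference of them, -0.43 ± 0.12 (adjusted p = 0.0837), and PSAN of photosystem I one of 0.19 ± 0.10 (adjusted p = 0.396). Subunits of the chloroplast NDH complex, which returns electrons to the plastoquinone pool, were not called either. NdhN read 7.06, 7.20 and 7.18 in shade and 7.71, 7.41 and 7.78 in strong shade (0.49 ± 0.12, adjusted p = 0.0659), and NdhL differed by 0.37 ± 0.13 (adjusted p = 0.156). With arrays centred on their medians NdhN passed at an adjusted p of 0.0376. CaS, a thylakoid calcium-sensing protein of the same list, differed by -0.08 ± 0.18.

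Of 9 measured chlorophyll and tetrapyrrole genes 1 rose, against 1.14% of all genes called higher. HEMA2, a glutamyl-tRNA reductase at the entry of the pathway, read 5.07, 4.96 and 5.07 in shade and 5.56, 5.65 and 5.90 in strong shade, 1.59-fold higher (0.67 ± 0.12, adjusted p = 0.0163). It lost its call without shade array 2 or 3 or strong shade array 2 or 3, at adjusted p up to 0.0809, and with all 16 arrays in the model, at 0.0605. The 14-array model called 2 members of this list. PORB, which makes chlorophyllide in light, had a mean of 8.42 ± 0.22 (SD, n = 3) in shade and 7.89 ± 0.16 in strong shade and was not called (adjusted p = 0.0685). Outside the lists, some other plastid genes rose: Cpn60beta4, a subunit of the plastid chaperonin, by 0.74 ± 0.16 (adjusted p = 0.0315), and CCB3, an assembly factor of cytochrome b6, by 0.53 ± 0.11 (adjusted p = 0.0307). Cpn60beta4 lost its call without any array other than shade array 1 (adjusted p up to 0.109) and CCB3 without any of the 6 (up to 0.116).

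Outside the lists, called genes of sugar metabolism and transport were ATSPS4F and SWEET2. ATSPS4F, a sucrose-phosphate synthase, read 3.74, 4.15 and 4.05 in shade and 5.60, 4.87 and 6.68 in strong shade, 3.34-fold higher (1.74 ± 0.36, adjusted p = 0.0289). Its strong shade arrays spread over nearly 2 log2 units, and its call was lost without any of the shade arrays or without strong shade array 1, at adjusted p up to 0.0885. SWEET2, a sugar transporter of the vacuole membrane, read 7.67, 7.47 and 7.35 in shade and 8.45, 8.54 and 8.47 in strong shade, 1.99-fold higher (0.99 ± 0.12, adjusted p = 0.00381). It kept its call whichever array was left out.

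Genes known to be induced in darkness and carbon shortage had positive differences. Of 32 listed, 10 were measured, 2 rose, none fell, and all 10 differences were positive, with a median of 0.45. Over all genes 53.6% of differences were positive, the median was 0.016 and 1.14% were called higher. Many of their products break down amino acids to feed respiration. ETFQO, which passes electrons from amino acid breakdown to ubiquinone, read 6.59, 6.30 and 6.41 in shade and 6.92, 7.27 and 7.41 in strong shade, 1.70-fold higher (0.76 ± 0.14, adjusted p = 0.0207). ATL8, a RING-type protein, read 6.23, 6.04 and 6.47 in shade and 6.88, 7.02 and 6.76 in strong shade, 1.56-fold higher (0.64 ± 0.13, adjusted p = 0.0309). The groups did not overlap in either gene, as in every called gene. MCCA, of leucine breakdown, differed by 0.62 ± 0.17 (adjusted p = 0.0789) and PPDK, the pyruvate orthophosphate dikinase, by 0.62 ± 0.18 (adjusted p = 0.106); neither was called. The count was sensitive to single arrays: 5 members were called without shade array 1, 1 without shade array 3 or strong shade array 1, and 0 without shade array 2 or strong shade array 2 or 3. With all 16 arrays in the model none was called (adjusted p = 0.328 for ETFQO and 0.462 for ATL8), and none with the replicate number as a block. The 14-array model called 5, and trended variances or array weights called 6.

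Outside that list, called enzymes of nitrogen and amino acid metabolism were GAT1_2.1, ASPGB1 and ALDH6B2. GAT1_2.1, related to glutamine amidotransferases, read 8.23, 8.39 and 8.63 in shade and 9.50, 9.98 and 9.55 in strong shade, 2.40-fold higher (1.26 ± 0.16, adjusted p = 0.00442). The groups lay nearly 1 log2 unit apart at their closest, and the call held whichever array was left out. A second, dimmer probe set of the gene differed by 0.56 ± 0.20 and was not called (adjusted p = 0.175). ASPGB1, an asparaginase, rose by 0.86 ± 0.16 (adjusted p = 0.0178) and ALDH6B2, a dehydrogenase of valine breakdown, by 0.63 ± 0.13 (adjusted p = 0.032). ASPGB1 lost its call without shade array 2 or strong shade array 3 (adjusted p up to 0.0809), and ALDH6B2 without shade array 2 or 3 or strong shade array 2 or 3 (up to 0.138).

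In the defence and jasmonate list 1 of 7 measured genes rose, against 1.14% of all genes called higher. The risen gene was the thionin THI2.2, an antimicrobial peptide. It read 6.54, 6.94 and 6.80 in shade and 8.92, 7.98 and 9.44 in strong shade, 4.06-fold higher (2.02 ± 0.30, adjusted p = 0.00762). Even its lowest strong shade array stood about 1 log2 unit above the highest shade array. Its relative THI2.1 was near the bottom of the intensity range, with a mean of 1.70 ± 0.03 (SD, n = 3) in shade and 1.95 ± 0.12 in strong shade, and was not called (adjusted p = 0.268). WRKY53, a transcription factor of defence and senescence, differed by 0.15 ± 0.11 (adjusted p = 0.552).

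Outside the list, several called genes are known from immune signalling. WRKY22, a transcription factor of pattern-triggered immunity, read 4.74, 3.79 and 5.00 in shade and 5.97, 5.83 and 5.83 in strong shade, 2.58-fold higher (1.37 ± 0.26, adjusted p = 0.0197). It was the called one of 6 WRKY genes, a family picked after values were seen, and all 6 had positive differences, against 53.6% of all genes. AT1G61380, an S-domain receptor kinase that senses bacterial fatty acid metabolites, read 3.29, 2.87 and 2.72 in shade and 4.14, 4.06 and 4.70 in strong shade, 2.53-fold higher (1.34 ± 0.19, adjusted p = 0.00736). BIK1, a cytoplasmic kinase that acts below immune receptors, read 5.75, 5.72 and 5.72 in shade and 6.31, 6.26 and 6.36 in strong shade, 1.49-fold higher (0.58 ± 0.10, adjusted p = 0.0141). PUB22, a ubiquitin ligase that dampens immune signalling, was 1.68-fold higher (0.75 ± 0.11, adjusted p = 0.00695). The arrays of these genes did not overlap between the groups, which holds for every called gene.

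THI2.2, AT1G61380 and PUB22 kept their calls whichever array was left out. WRKY22 lost its call without any of the strong shade arrays (adjusted p up to 0.0729) and BIK1 without shade array 2 or 3 or strong shade array 2 or 3 (up to 0.0691). A pair of cytochrome P450 genes rose as well, CYP71B23 by 1.17 ± 0.16 (adjusted p = 0.00666) and CYP71B24 by 0.73 ± 0.12 (adjusted p = 0.0114). CYP71B23 kept its call in all 6 fits, while CYP71B24 lost it without shade array 2 or strong shade array 2 (up to 0.0545).

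Of 40 listed genes induced by abscisic acid, cold and drought 7 were measured, and 6 of them had negative differences. Over all genes 53.6% of differences were positive. Of the 7, 2 fell and none rose, against 1.85% of all genes called lower. Their median difference was -0.83, which depended on shade array 1, as given below. COR47, a dehydrin that protects cells during cold and water loss, read 10.71, 10.27 and 10.19 in shade and 9.49, 9.52 and 9.66 in strong shade, 1.78-fold lower (-0.83 ± 0.15, adjusted p = 0.0151). HIS1-3, a drought-inducible linker histone, read 8.45, 8.14 and 8.06 in shade and 7.55, 7.36 and 7.21 in strong shade, 1.79-fold lower (-0.84 ± 0.14, adjusted p = 0.012). In both genes every shade array lay above every strong shade array, as in every gene called lower. COR47 lost its call without strong shade array 1 or 2 (adjusted p up to 0.0677) and HIS1-3 without strong shade array 2 (0.0557). With all 16 arrays in the model neither was called (adjusted p = 0.0594 and 0.178), while the 14-array model called 2 members of this list.

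The largest difference of that list belonged to 1 array. LEA4-5, a late embryogenesis abundant protein, read 6.04 on shade array 1 but 3.06 and 3.15 on the other shade arrays, against 3.09, 2.48 and 3.16 in strong shade (-1.18 ± 0.65, adjusted p = 0.406). COR15B, a cold-induced chloroplast protein, likewise read 5.24 on shade array 1 and 3.69 and 3.84 on the others, against 3.11, 3.32 and 3.39 in strong shade (adjusted p = 0.157). Without shade array 1 the list's median difference was -0.19. AtLEA4-1, another late embryogenesis abundant gene outside the list, fell from 3.32 ± 0.09 (SD, n = 3) to 2.69 ± 0.28 (adjusted p = 0.0455), a call lost without any array other than strong shade array 1 (up to 0.14).

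**Figure D3:**
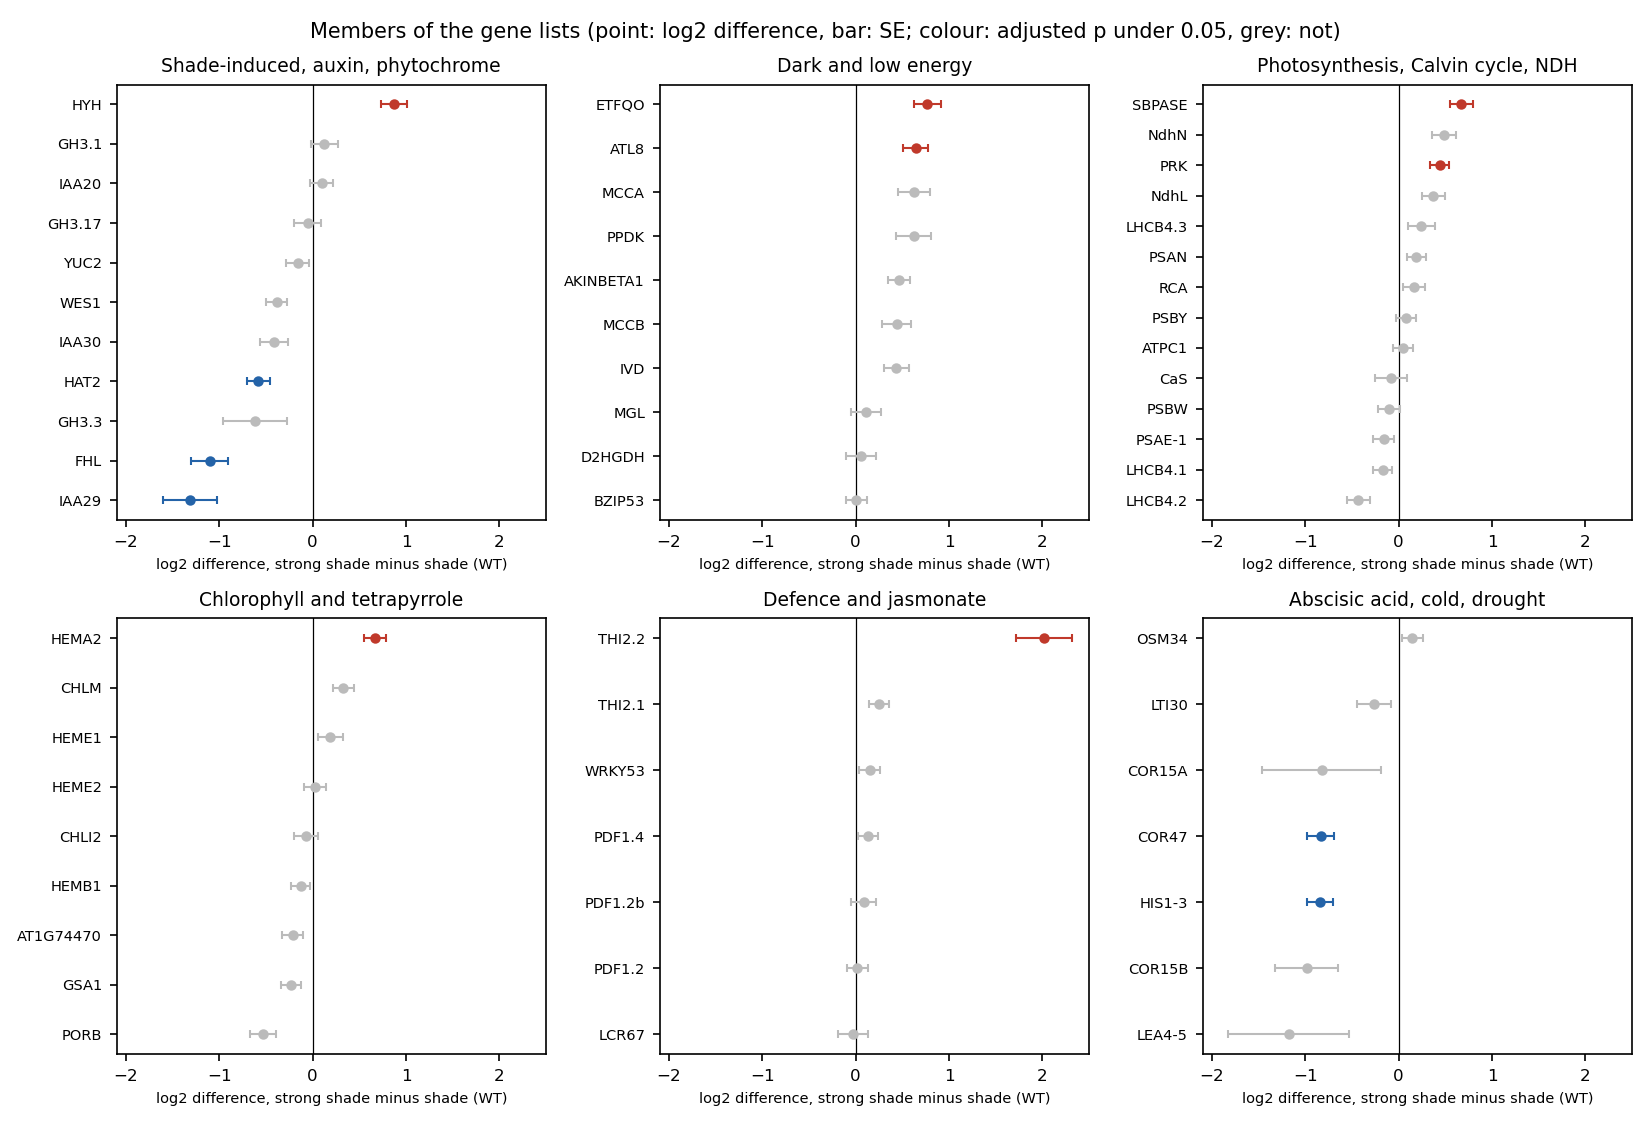
Log2 differences between WT strong shade and WT shade (points, with standard errors as bars; 3 arrays per group) for measured members of the gene lists. Red points rose and blue points fell at an adjusted p under 0.05, grey points were not called; IAA29, FHL and HAT2 lie left of 0 and HYH at 0.87 to the right, while all 10 dark and low energy genes lie right of 0.

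Most of the largest differences belonged to genes that the reference table lists by locus tag alone. Upward, AT3G22060 read 3.19, 3.14 and 3.38 in shade and 5.44, 5.32 and 7.05 in strong shade, 6.50-fold higher (2.70 ± 0.37, adjusted p = 0.00627). AT1G66100 read 4.84, 5.07 and 5.70 in shade and 7.86, 7.67 and 8.09 in strong shade, 6.36-fold higher (2.67 ± 0.21, adjusted p = 0.000749). The strong shade arrays of AT3G22060 spread more widely, with array 3 the highest, whereas those of AT1G66100 lay within 0.21 (SD). The next genes were AT3G62950, 4.22-fold higher (2.08 ± 0.33), AT2G43620, 3.86-fold (1.95 ± 0.45), AT4G37220, 3.51-fold (1.81 ± 0.22), AT1G25400, 3.15-fold (1.66 ± 0.16), and AT2G36690, 3.10-fold (1.63 ± 0.24). Of these, AT2G43620 rested on unequal arrays: its shade arrays read 2.56, 2.59 and 2.56 and its strong shade arrays 4.20, 3.52 and 5.83, and it lost its call without any shade array or strong shade array 1 (adjusted p up to 0.144). AT3G62950 lost its call without strong shade array 2 (0.0511). The other named genes of this paragraph kept theirs in all 6 fits.

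Downward, AT1G80130 read 6.59, 6.66 and 6.08 in shade and 4.09, 3.55 and 4.69 in strong shade, 5.04-fold lower (-2.33 ± 0.26, adjusted p = 0.00308). AT3G53980 read 8.54, 8.23 and 8.66 in shade and 5.98, 5.62 and 6.82 in strong shade, also 5.04-fold lower (-2.33 ± 0.26, adjusted p = 0.00308). In both, strong shade array 2 was the lowest and array 3 the highest of its group. AT4G23680 was 4.79-fold lower (-2.26 ± 0.38), AT5G22580 4.18-fold (-2.06 ± 0.21), AT4G33550 4.11-fold (-2.04 ± 0.32) and AT1G64590 3.41-fold (-1.77 ± 0.23). Among these, AT4G23680 lost its call without shade array 2 (adjusted p = 0.0579) and the others kept theirs in all 6 fits. AT3G02640, AT4G38080 and AT2G23540 were 3.91-fold, 3.61-fold and 3.47-fold lower, and each lost its call in at least 4 of the 6 fits. These were the fits without shade array 2 or 3 or strong shade array 1 or 2 and, for AT3G02640, also without strong shade array 3, at adjusted p up to 0.106, 0.124 and 0.134.

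Besides AT1G66100, described above, 5 further genes had the smallest adjusted p-values among named genes. AT5G66590 read 6.61, 6.71 and 6.71 in shade and 5.39, 5.34 and 5.34 in strong shade, 2.49-fold lower (-1.32 ± 0.10, adjusted p = 0.000749). AT1G75900 read 5.85, 5.92 and 6.13 in shade and 4.45, 4.29 and 4.43 in strong shade, 2.98-fold lower (-1.57 ± 0.12, adjusted p = 0.000749). AT2G25735 read 3.45, 3.42 and 3.55 in shade and 4.91, 4.88 and 4.70 in strong shade, 2.56-fold higher (1.36 ± 0.11, adjusted p = 0.000779). The gap between the groups in each was several times the spread within them. AT1G11210 and AT5G62550 followed, 2.65-fold and 2.61-fold lower (adjusted p = 0.000816 and 0.00125).

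Several processes that shade is known to touch showed no called member here. Among 3 measured gibberellin genes the receptor GID1A differed by 0.03 ± 0.11. GI, the single measured clock gene, differed by 0.18 ± 0.13 (adjusted p = 0.526). None of 6 flavonoid and anthocyanin genes was called. The flavonoid glycosyltransferase UGT78D2 differed by 0.28 ± 0.13 (adjusted p = 0.306) and CHIL, a chalcone isomerase-like protein, by -0.24 ± 0.15 (adjusted p = 0.482). None of 5 glucosinolate genes was called either, and BCAT4, an aminotransferase of their synthesis, differed by 0.45 ± 0.38 with strong shade array 3 at 4.11 above its fellows at 2.31 and 2.87. Cytokinin and ethylene (2 measured), starch and sugar (3), heat shock (2), wax (1) and senescence (1) lists had no called member, and 6 lists had none measured, so that these counts speak for few genes.

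Markers of cell types within the seedling were read from the same arrays. Of 10 listed root genes 3 were measured and none was called. PYK10, an abundant beta-glucosidase of roots and seedlings, had a mean of 10.61 ± 0.21 (SD, n = 3) in shade and 10.24 ± 0.12 in strong shade (adjusted p = 0.182), and the root hair expansins EXPA7 and EXPA18 differed by 0.03 ± 0.27 and -0.27 ± 0.17. The summed intensity of the 3 was 1367 to 1818 units in shade and 1151 to 1349 in strong shade, and PYK10 carried most of it. These ranges did not overlap, and arrays separated downward in the same way for 9.87% of all genes. The part of this sum in the results above was not tested. In the guard cell lineage list SPCH, MUTE and FMA, the transcription factors that define that lineage, differed by -0.09 ± 0.13, 0.05 ± 0.12 and 0.14 ± 0.13 and lay between 2.24 and 3.71 log2 units in group means. The other listed gene, AT1G22690, read 5.91, 6.63 and 6.74 in shade and 8.19, 8.20 and 7.76 in strong shade, 3.09-fold higher (1.63 ± 0.21, adjusted p = 0.00537). The summed intensity of the 4 was 84.2 to 129 units in shade and 241 to 319 in strong shade, and AT1G22690 carried most of it.

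White light gives the genes of this step a further reference, although its 2 arrays came from another light source and the values below share the same shade arrays. For some genes strong shade lay between white light and shade. HYH had a mean of 5.52 in white light, 4.05 in shade and 4.92 in strong shade. IAA29 stood at 2.30, 7.21 and 5.89, and FHL at 2.58, 4.24 and 3.14. AT1G66100 stood at 9.39, 5.20 and 7.87 and SBPASE at 10.47, 9.07 and 9.74. For others strong shade lay beyond shade. GAT1_2.1 had means of 3.45, 8.42 and 9.68, WRKY22 of 2.43, 4.51 and 5.88, and ATL8 of 2.37, 6.25 and 6.89. Downward, EXPA4 stood at 6.79, 5.69 and 4.18, TUA6 at 9.76, 8.96 and 8.03, and TUB1 at 5.31, 4.51 and 3.39. THI2.2 was at 8.27 in white light and 8.78 in strong shade, with shade at 6.76 below both: strong shade minus white light was 0.51 ± 0.32 (adjusted p = 0.249, model of the 8 WT arrays). XTH16 was at 6.77 in white light and 6.44 in shade, a difference of -0.33 ± 0.31 (adjusted p = 0.471), and at 4.81 in strong shade. EXPA16 was dim in white light, at 2.70, and read 5.54 in shade and 4.30 in strong shade.

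**Figure D4:**
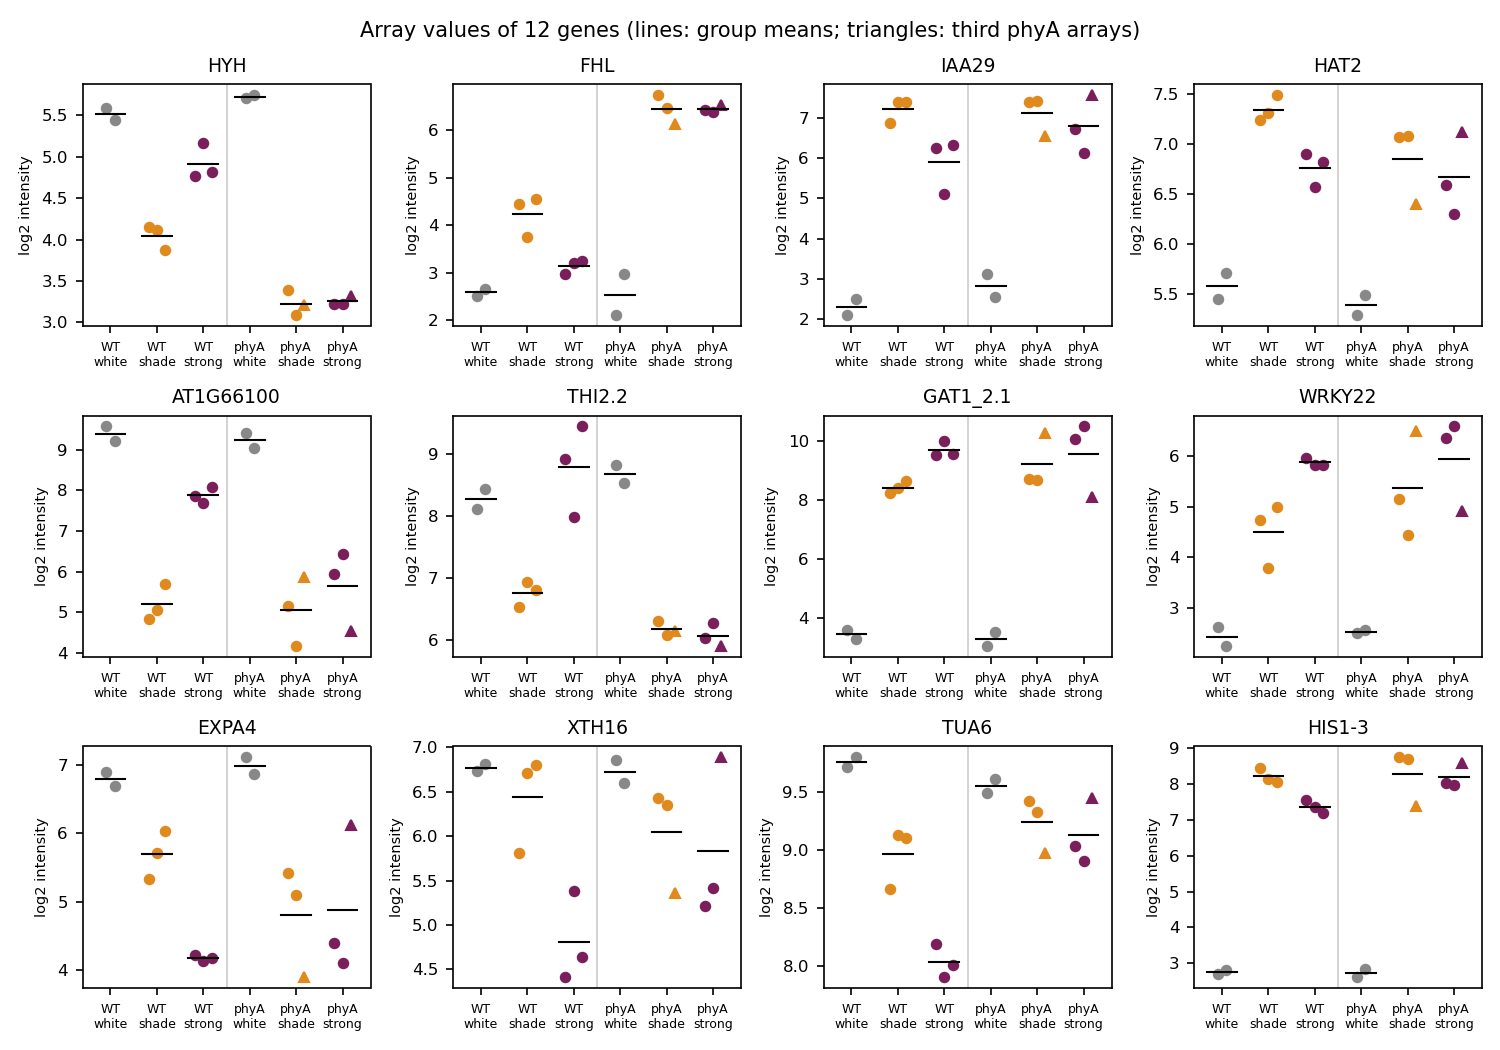
Log2 intensity of 12 genes on every array, with WT groups left and phyA groups right of the grey line, group means as black lines and the third phyA arrays as triangles. In WT the strong shade arrays do not overlap the shade arrays in any panel, as in every called gene. In phyA the triangles of GAT1_2.1, EXPA4 and XTH16 lie with the opposite light condition.

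The same step in the phyA mutant was measured on arrays that the WT fit did not use, but 2 of them stood apart. The third phyA shade array correlated at no more than 0.986 with the other arrays of its label and at no less than 0.993 with phyA strong shade arrays 1 and 2. The third phyA strong shade array correlated at no more than 0.983 with its own label and at no less than 0.991 with phyA shade arrays 1 and 2. No array was moved to another group. Most phyA results are given both with all arrays and without these 2, and the others name the arrays used. No probe set here could be named for PHYA itself, so the mutant label was not checked by its target.

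With all 6 phyA arrays limma called 0 probe sets (0% of all), with 560 at an unadjusted p under 0.05. Without the third arrays it called 214 higher (0.941%) and 439 lower (1.93%). Of the 152 genes that rose in WT, 101 had a positive difference in phyA with all arrays and 125 without the third ones, against 54.4% and 56.4% of all genes. Of the 247 that fell in WT, 202 had a negative difference with all arrays and 243 without the third ones, against 45.6% and 43.6% of all genes. Median differences of the genes that rose were 0.67 in WT, 0.09 in phyA with all arrays and 0.35 without the third ones, and those of the genes that fell were -0.79, -0.14 and -0.57. Without the third arrays 37 genes rose in both genotypes, 24.3% of the WT genes and 43.0% of the 86 phyA genes (0.644% of all), and 73 fell in both, 29.6% of the WT genes and 36.9% of the 198 phyA genes (1.48% of all). The third arrays were doubted because they ran against their labels, so the values without them are not independent of that choice.

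GAT1_2.1, EXPA16, WRKY22, IAA29 and AT1G80130 were called in phyA without the third arrays. GAT1_2.1 read 8.71, 8.68 and 10.26 on phyA shade arrays 1 to 3 and 10.06, 10.48 and 8.09 on the strong shade arrays. The third array of each group thus sat with the other condition, and the difference was 0.32 ± 0.66 with all arrays and 1.57 ± 0.16 without the third ones (adjusted p = 0.00722). EXPA16 fell by 0.44 ± 0.47 on the log2 scale with all arrays, not called, and by 1.27 ± 0.18 without the third ones (adjusted p = 0.017). WRKY22 differed by 0.59 with all arrays and by 1.67 ± 0.22 without the third ones (adjusted p = 0.0134), and IAA29 by -0.31 ± 0.37 and -0.97 ± 0.20 (adjusted p = 0.0447). AT1G80130 differed by -0.29 ± 1.20 and -2.59 ± 0.13 (adjusted p = 0.000217).

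HYH, FHL, THI2.2 and SBPASE were not called in phyA, with or without the third arrays. HYH read 3.39, 3.08 and 3.20 in phyA shade and 3.22, 3.22 and 3.32 in phyA strong shade, all below the WT arrays of either shade. Its difference was 0.03 ± 0.12 with all arrays and -0.01 ± 0.14 without the third ones. FHL read 6.73, 6.46 and 6.12 in phyA shade and 6.42, 6.37 and 6.52 in phyA strong shade, all above the WT arrays of either shade (difference 0.00 ± 0.16, and -0.20 ± 0.14 without the third ones). THI2.2 differed by -0.11 ± 0.13 and -0.05 ± 0.15, and SBPASE by -0.27 ± 0.12 and -0.16 ± 0.13. In SBPASE the phyA strong shade arrays, at 7.35, 7.30 and 7.21, all lay below the phyA shade arrays, at 7.38, 7.61 and 7.67, the order opposite to WT.

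The difference between the genotypes in this step was itself tested on the 12 arrays and reached no call: 0 probe sets (0% of all) at an adjusted p under 0.05, 1465 at an unadjusted p under 0.05, and a smallest adjusted p of 0.322. THI2.2 and SBPASE had that smallest value, with a WT step minus phyA step of 2.14 ± 0.38 and 0.94 ± 0.17. HYH differed by 0.84 ± 0.18 (adjusted p = 0.493) and FHL by -1.10 ± 0.28 (adjusted p = 0.559). Without the third phyA arrays 2 probe sets (0.00879%) were called, 1 unnamed and 1 for AT2G03420, whose WT step exceeded its phyA step by 1.34 ± 0.16 (adjusted p = 0.0491), while THI2.2 stood at 2.07 ± 0.43 (adjusted p = 0.215). The steps of WT and phyA are therefore not shown to differ in THI2.2, SBPASE, HYH or FHL.

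**Figure D5:**
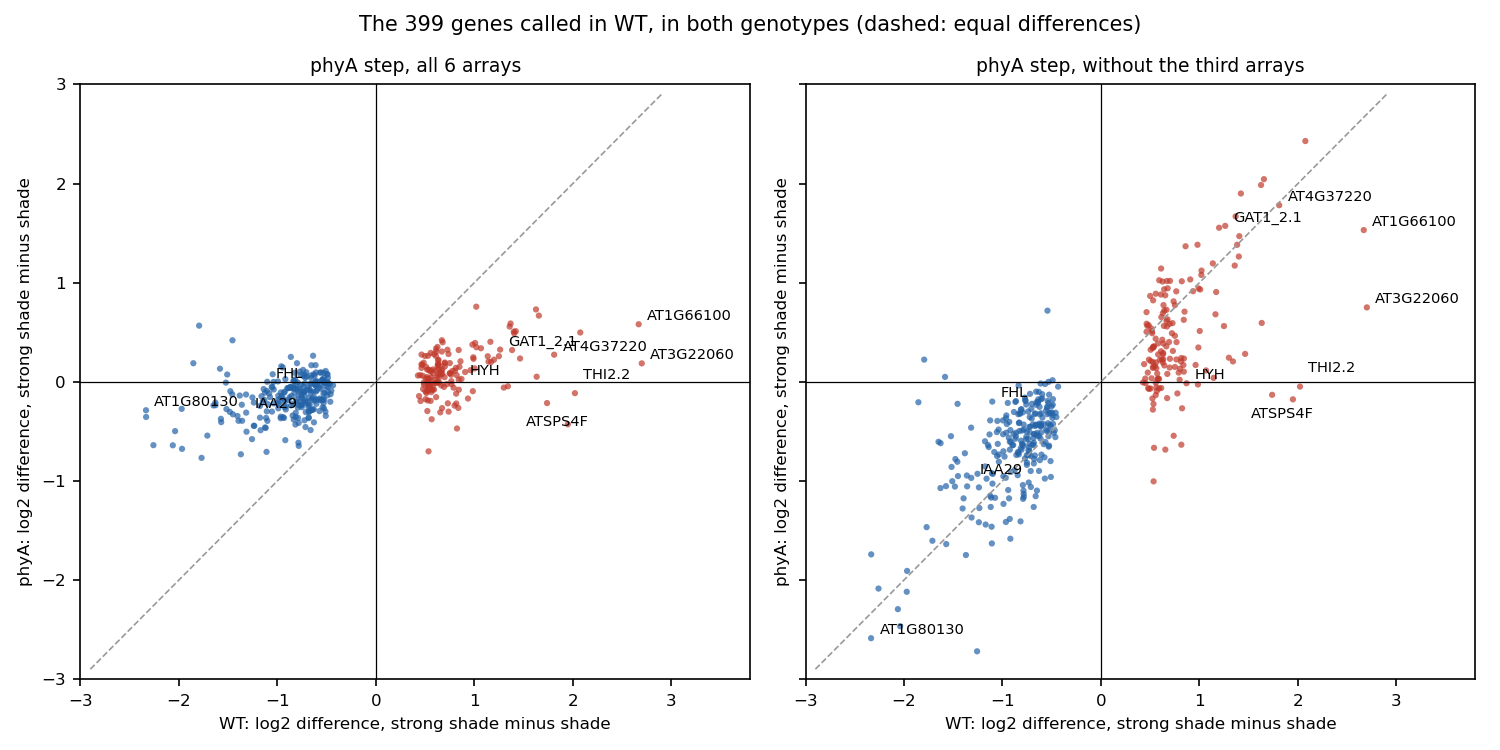
Log2 difference between strong shade and shade in phyA (y axis) against that in WT (x axis) for the 399 genes called in WT, with all phyA arrays (left) and without the third ones (right); the dashed line marks equal differences. With all arrays the phyA values stay close to 0, with medians of 0.09 and -0.14; without the third arrays they spread along the line, with medians of 0.35 and -0.57, while HYH, FHL, THI2.2 and ATSPS4F lie near 0.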

How the data were processed

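RNA of whole seedlings was measured on Affymetrix arrays. The submitters' processing notes name RMA and the affy package for the probe set intensity values that the authors deposited, and the sources used here give no version. These values ran from 2.33 to 6167 and were taken as linear, and their log2 was computed with no pseudocount and no further scaling. Background intensity per probe set was not used here, RMA compresses dim signals, and the number of arrays limits the precision.

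Probe sets were named from the platform annotation and a reference gene table (TAIR10.1, names only): 13513 of 22746 had 1 gene, 503 several and 8730 none listed, and 13436 matched the reference. A gene was represented by its brightest probe set on the 6 WT arrays. limma 3.58.1 in R 4.3.3 (lmFit, eBayes) was fitted to these 6 arrays, with 4 residual degrees of freedom, and likewise to the 6 phyA arrays and, for the difference between genotypes, all 12. Adjustment by Benjamini-Hochberg covered every probe set, and all adjusted p-values are limma's. The procedure was tested on simulated data.

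The 28 gene lists (619 genes, 108 measured by a probe set with 1 gene), the families and the comparison were chosen with earlier results of these data known. Named genes were the 12 highest and 12 lowest called genes with separate arrays, called genes with a symbol, and the 6 genes with the smallest adjusted p-values. Called list members were also named, as were up to 4 members per list with the largest absolute difference, called or not. Only part of the named genes is printed. Alternatives were median centring, cyclic loess, a filter that drops the dimmest 40% of probe sets, trended or robust variances, array weights, models of all 16 or the 8 WT arrays, the replicate number as a block, a minimum log2 difference of 1, testing 1 probe set per gene, and omitting each array in turn. A model of 14 arrays, without the third phyA shade and strong shade arrays, was an alternative chosen after seeing the data.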

Additional observations from a re-analysis of the deposited data

How the results depend on the processing

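Against 306 higher and 542 lower probe sets, limma called 488 and 868 with array weights, 61 and 89 with all 16 arrays in the model, 135 and 349 with the replicate block, 61 and 166 with a log2 difference of at least 1, 128 and 225 with 1 probe set per gene, which tests fewer features, and 523 and 898 in the 14-array model without the third phyA arrays. Leaving out 1 array gave 90 to 365 higher and 169 to 735 lower. Of the calls of the 16-array model, 60 higher and 88 lower were also among the 306 and 542. Median centring, loess, the filter on dim probe sets, trended and robust variances and the 8-array WT model kept both counts within 1.5 times. Same-numbered arrays of the 2 WT groups deviated from their group means with correlations of -0.23, -0.15 and -0.04, so the numbers share no visible pairing. Of 102 called named genes, 76 lost the call with 16 arrays, 4 in the 14-array model and 31 with the replicate block. The call was lost by 8 with centring, 6 with loess and 14 to 55 when 1 array was left out, and none changed direction. With the block no dark and low energy or Calvin cycle gene was called, against 2 in each list. For phyA 653 probe sets were called without the third arrays in place of 0; for the difference between genotypes the count was 0 to 1 with 1 array left out and 2 without the third phyA arrays. Uncalled genes near 0 changed sign: with 1 array left out EXPA7 ran from -0.17 to 0.38 (-0.15 with array weights), SPCH from -0.19 to 0.020, CaS from -0.23 to 0.14, MUTE from -0.055 to 0.11, BCAT4 from -0.056 to 0.84 and GID1A from -0.047 to 0.089. The causes were not tested.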

Other observations

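Called genes with a symbol outside the groups above included some of secreted peptides, membrane traffic and specialised metabolism that fell in WT strong shade. RALFL34 and RALFL24, peptides of the rapid alkalinization factor family, fell by 0.72 ± 0.15 (adjusted p = 0.0336) and 0.68 ± 0.12 (adjusted p = 0.0163) on the log2 scale, and they were the called ones of 11 measured family members, a family picked after values were seen. PRA1.B4, of a family of membrane traffic proteins, fell by 0.81 ± 0.14 (adjusted p = 0.0125) and VPS2.2, of the ESCRT machinery that sorts membrane proteins for breakdown, by 0.99 ± 0.19 (adjusted p = 0.0219). NAI1, a transcription factor needed for ER bodies, read 5.14, 5.13 and 5.15 in shade and 4.70, 4.56 and 4.46 in strong shade (-0.57 ± 0.11, adjusted p = 0.0207). GTR2, a glucosinolate transporter, fell by 0.70 ± 0.12 (adjusted p = 0.014). The 6 genes lost their calls when shade array 2 or strong shade array 2 was left out; except for PRA1.B4 they also lost them without shade array 3, and RALFL34, RALFL24, VPS2.2 and NAI1 without strong shade array 3 (adjusted p up to 0.144).

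Others held whichever array was left out. NAMT1, which methylates nicotinate, read 4.08, 3.91 and 4.11 in shade and 2.54, 2.36 and 3.08 in strong shade, 2.59-fold lower (-1.37 ± 0.17, adjusted p = 0.00442), and stood at 2.23 in white light. The beta-glucosidase BGLU40 fell by 0.93 ± 0.12 (adjusted p = 0.00442), the lectin EULS3 by 0.89 ± 0.14 (adjusted p = 0.00853) and the subtilase ATSBT5.2 by 0.77 ± 0.13 (adjusted p = 0.0128). In phyA without the third arrays NAMT1 fell by 1.75 ± 0.13 (adjusted p = 0.00304) and ATSBT5.2 differed by -0.18 ± 0.21 (adjusted p = 0.714). With all phyA arrays neither was called, as no probe set was.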
